A study of Mus musculus with 6 samples.

Results

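The Jun peaks described here are those at the genes of collagen VI in rib chondrocytes of newborn mice. They are the 233 entries, of 99162 in the deposited list, whose midpoint lies in either of 2 stretches of the mouse genome build mm9. The first stretch, of 240 kb on chromosome 1 (chr1:92560001-92800000), is drawn around Col6a3 and held 151 peaks. The second, of 210 kb on chromosome 10 (chr10:76020001-76230000), is drawn around Col6a2 and Col6a1 and held 82 peaks. They are called the Col6a3 window and the Col6a2/Col6a1 window below. The windows were chosen by gene and by the crowding of peaks seen in this same list, so the number, density and spacing of their peaks are described without a test. Gene positions of mm9 were not used here, so no peak was placed in an exon, intron or promoter, and that the windows hold these genes was taken as given.

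Jun was mapped in 1 library by chromatin immunoprecipitation and sequencing (ChIP-seq), in which cross-linked, sheared chromatin is pulled down with an antibody and the recovered DNA is sequenced. The cells were chondrocytes, the matrix-making cells of cartilage, released by enzyme from the ribs of untreated wild-type ICR mice at postnatal day 1, and 1 input library (DNA that was not precipitated) was prepared from the same kind of cells. The study asked how AP-1 factors act with Sox9, the transcription factor of cartilage formation, as chondrocytes become hypertrophic. Values of the input library and of the 4 RNA-seq samples in the series were not analysed here, and with no expression values the chondrocyte label was not checked against marker genes.

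Collagen VI is built from 3 chains, α1(VI), α2(VI) and α3(VI), encoded by Col6a1, Col6a2 and Col6a3. The chains join in one molecule, which is secreted and assembles into beaded microfilaments. In cartilage these filaments are concentrated in the pericellular matrix, the shell directly around each chondrocyte, where they link the cell to the wider matrix. Jun is a subunit of AP-1, a dimer of Jun and Fos family proteins that binds the short palindrome TGANTCA, where N is any base.

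The start regions of the 3 genes show whether the letters that AP-1 binds occur where their transcription begins. The sequences below are from RefSeq on the later build GRCm38.p6, all on the minus strand, and run from 250 bases before to 50 bases after an annotated start, 5′ to 3′. Capitals mark TGANTCA, which reads the same on both strands. The windows are chr1:90843922-90844221 for Col6a3, chr10:76623355-76623654 for Col6a2 and chr10:76725995-76726294 for Col6a1.
Col6a3: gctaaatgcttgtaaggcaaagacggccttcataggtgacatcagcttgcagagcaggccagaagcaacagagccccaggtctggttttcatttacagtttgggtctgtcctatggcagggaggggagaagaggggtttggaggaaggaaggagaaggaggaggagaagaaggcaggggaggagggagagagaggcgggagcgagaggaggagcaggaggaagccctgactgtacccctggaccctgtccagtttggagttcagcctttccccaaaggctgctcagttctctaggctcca
Col6a2: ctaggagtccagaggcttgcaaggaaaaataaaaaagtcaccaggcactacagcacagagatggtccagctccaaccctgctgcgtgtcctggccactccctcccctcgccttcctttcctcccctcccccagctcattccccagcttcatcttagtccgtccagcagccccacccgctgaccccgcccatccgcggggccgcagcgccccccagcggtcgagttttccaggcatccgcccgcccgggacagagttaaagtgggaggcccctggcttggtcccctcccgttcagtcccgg
Col6a1: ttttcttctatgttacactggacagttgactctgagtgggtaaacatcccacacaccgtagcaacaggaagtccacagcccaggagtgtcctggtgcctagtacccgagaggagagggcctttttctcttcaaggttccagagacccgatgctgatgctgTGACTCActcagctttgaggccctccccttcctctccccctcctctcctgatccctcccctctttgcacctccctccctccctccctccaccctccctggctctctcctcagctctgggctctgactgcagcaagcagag

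The Col6a1 start region held 1 match, TGACTCA at bases 161 to 167, with 83 bases between it and the start. The Col6a3 region and both annotated Col6a2 start regions (the second, not shown, overlaps the first) held none. TGANTCA occurred in 7.81% of the 32851 start regions of mouse genes of the same length. Neither the related site TGACGTCA (1.79% of all start regions) nor the SOX-type letters ACAATGG, searched also as CCATTGT (3.66%), occurred in these 4 regions. Because the peaks are on mm9 and these regions on GRCm38.p6, whether a peak covers any of them was not determined. By the order of genes on GRCm38.p6, Col6a3 lies between the protein-coding genes Cops8 and Mlph. Col6a2 follows Ftcd and is followed by Col6a1, and Pcbp3 comes next.

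Both collagen VI windows were crowded with Jun peaks, and the Col6a3 window more so. It held 62.9 peaks per 100 kb (exact Poisson 95% interval 53.3 to 73.8), against 39.0 per 100 kb in the Col6a2/Col6a1 window (31.1 to 48.5), a ratio of 1.61 (1.22 to 2.13). The whole list held 3.87 peaks per 100 kb between the first and last peaks of its chromosomes, so that the density was 16.3 times that level at Col6a3 and 10.1 times at Col6a2/Col6a1. These intervals cover counting error only, and they are too narrow where peaks come in groups. There is no second Jun library to give a spread between animals. Peaks covered 25455 bp, or 10.6% of the Col6a3 window, and 17022 bp, or 8.11% of the Col6a2/Col6a1 window, against 0.524% of the chromosome spans for the whole list.

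The ratio of densities depended on where the windows begin and end. The Col6a3 window was occupied almost from end to end, with its first peak centre 6031.5 bp and its last 2061.5 bp inside the edges, and peaks went on outside, the next centres lying 99.5 bp before the window and 696.5 bp after it. The Col6a2/Col6a1 window had empty margins. Its first peak centre lay 31445 bp and its last 32017 bp inside the edges, and the nearest peaks outside were a further 25593 bp before and 35292 bp after. Counted from first to last peak, the densities were 65.1 per 100 kb at Col6a3 and 56.0 per 100 kb at Col6a2/Col6a1, a ratio of 1.16 whose interval ran from 0.883 to 1.54. With peaks within 1000 bp of each other merged, 48 regions remained in the Col6a3 window and 33 in the Col6a2/Col6a1 window, a ratio of 1.27 (0.800 to 2.05).

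The windows also ranked high among stretches of the same length. Of 10701 consecutive 240 kb tiles of the genome, 0 (0%) held 151 peaks or more, and 9 of 12226 tiles of 210 kb (0.0736%) held 82 or more. The tiles lie on a fixed grid whereas the windows were drawn around their peaks, so the comparison favours the windows.

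Along the Col6a3 window the peaks formed a single broad block. In bins of 10 kb, 8 of the 24 bins held 10 or more peaks, and these 8 held 98 of the 151 peaks. Over all 10 kb bins of the list, 0.0589% held 10 or more. The fullest bins, from 92690001 to 92700000 and from 92730001 to 92740000, held 16 peaks each. No 10 kb bin of the whole list, on the same grid, held more than 16, and 4 bins, these 2 among them, held 16. The fullest 100 kb held 112 peaks (92634849 to 92734814), and 1 bin, near the right end, held none.

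At Col6a2/Col6a1 the peaks fell into separate groups. Of the 21 bins 7 were empty and 2 held 10 or more, the fullest (76070001 to 76080000) with 13. When each peak was chained to the next wherever their centres were at most 10 kb apart, 3 groups and no lone peak resulted. The first held 26 peaks in 33.9 kb (76051415 to 76085325), the second 21 in 20.8 kb (76095447 to 76116284) and the third 35 in 66.3 kb (76131728 to 76198016). The longest stretch without a peak that has peaks on both sides in the window, 15443 bp from 76116285 to 76131727, separated the second group from the third. Which of these groups overlaps Col6a2 and which Col6a1 was not determined. In the Col6a3 window the same chaining gave 5 groups, of which 1 held 136 peaks over 169 kb (92598601 to 92767891). These groups depend on the 10 kb limit. The first and second Col6a2/Col6a1 groups were parted by 10392.5 bp between centres, whereas the main Col6a3 group includes a distance of 9726 bp. With a limit of 5 kb there were 11 groups at Col6a3, the fullest of 126 peaks, and 9 at Col6a2/Col6a1, the fullest of 27. The longest empty stretch between peaks of the Col6a3 window, of 13594 bp, ran from 92778396 to 92791989, beyond its main block.

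**Figure D1:**
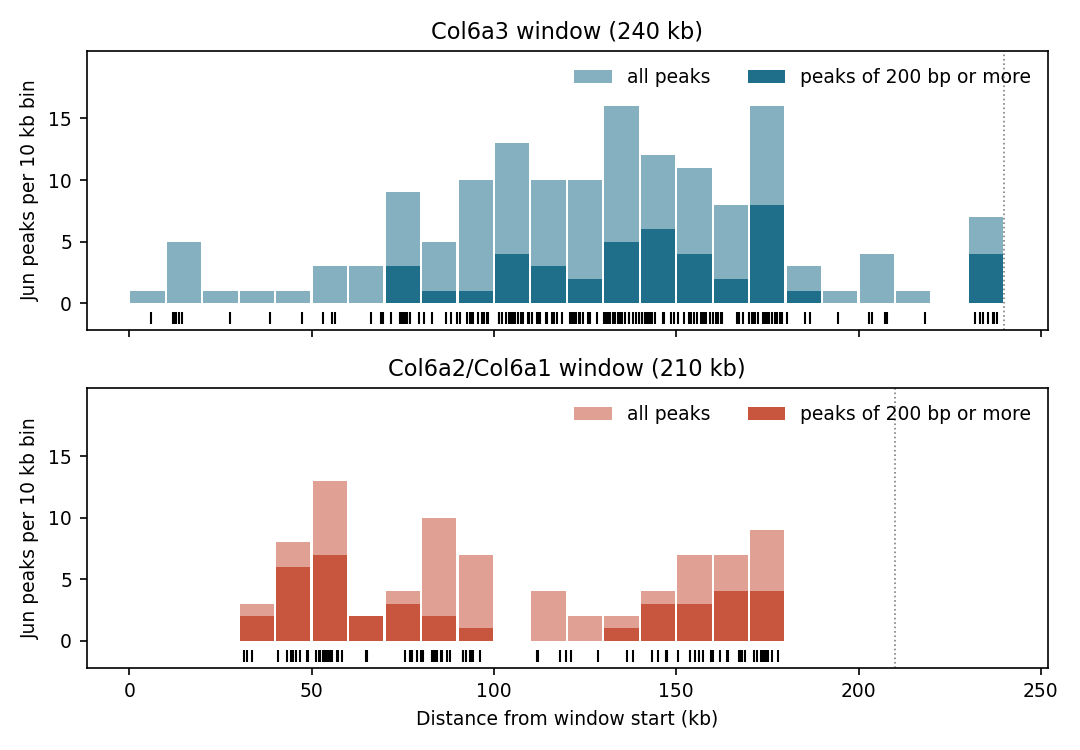
Number of Jun peaks in each 10 kb bin (y axis) by distance from the window start in kb (x axis), Col6a3 window above and Col6a2/Col6a1 window below, with peaks of 200 bp or more in the darker shade, a tick for each peak centre and a dotted line at the window end. The Col6a3 peaks form 1 broad block with up to 16 peaks per bin, and the Col6a2/Col6a1 peaks form groups with at most 13 per bin and empty margins.

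In both windows the typical distance between neighbours was under 1 kb. The median distance between neighbouring centres was 784 bp at Col6a3 (exact binomial 95% interval of the median 694 to 887, 150 distances) and 994 bp at Col6a2/Col6a1 (726 to 1284, 81 distances), and these intervals overlapped. The next centre lay within 10 kb for 147 of the 151 Col6a3 peaks (97.4%) and for 79 of the 82 Col6a2/Col6a1 peaks (96.3%), against 61.3% of all peaks. Within 1 kb the counts were 97 (64.2%, exact Clopper-Pearson 95% interval 56.0 to 71.9) at Col6a3 and 41 (50.0%, 38.7 to 61.3) at Col6a2/Col6a1. Of all peaks 23.3% had a centre so near, and the intervals of the windows overlapped. Part of the close spacing was shared by other crowded places. In 100 kb tiles with 20 or more peaks outside the windows, the shares were 90.3% within 10 kb and 38.4% within 1 kb. In the 3 fullest groups elsewhere in the list, on chromosomes 4, 7 and 10, the share within 1 kb was 57.4%, 63.3% and 31.4%. At the shortest range the windows were alike in value, with 42 of 150 distances (28.0%) at Col6a3 and 21 of 81 (25.9%) at Col6a2/Col6a1 below 500 bp. The shares parted in value between 500 bp and 2 kb, as the plot of spacing shows. Within 2 kb they were 84.1% (77.3 to 89.5) at Col6a3 and 74.4% (63.6 to 83.4) at Col6a2/Col6a1, and these intervals overlapped too.

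**Figure D2:**
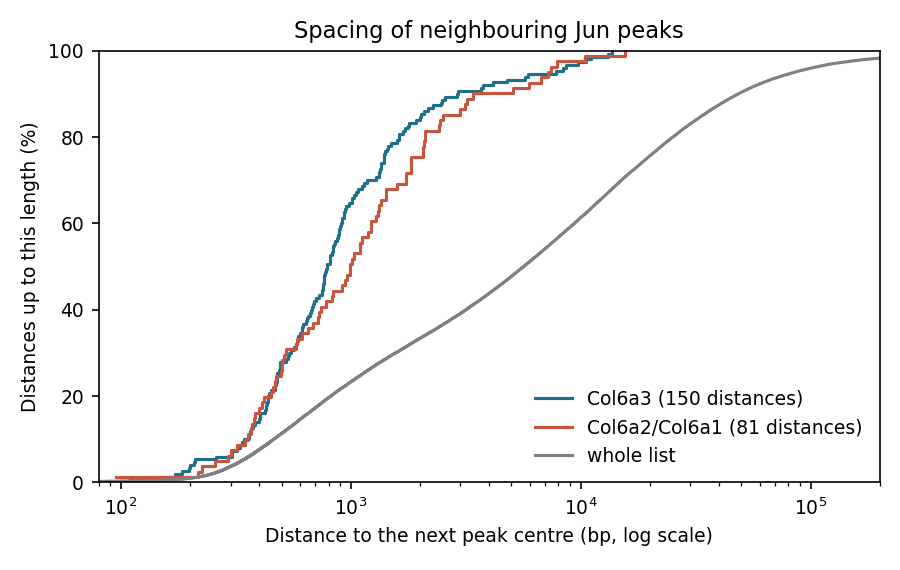
Cumulative share of distances between neighbouring Jun peak centres (y axis, percent) up to each length (x axis, bp, log scale) for the Col6a3 window, the Col6a2/Col6a1 window and the whole list. Both windows lie far to the left of the whole list, with medians of 784 bp and 994 bp, and their curves run together below about 500 bp.

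The tightest runs show what the crowding consists of. Chained within 1 kb, the fullest run at Col6a3 held 13 peaks in 7.36 kb (92696915 to 92704269), with widths of 37, 151, 368, 32, 106, 83, 84, 84, 97, 173, 419, 498 and 204 bp from left to right. It thus mixed 2 peaks under 50 bp with 4 of 200 bp or more. At Col6a2/Col6a1 the fullest run held 10 peaks in 4.54 kb (76071050 to 76075589), with widths of 270, 411, 408, 152, 108, 88, 277, 304, 291 and 105 bp. Here 6 of the 10 were 200 bp or wider and 0 were under 50 bp. Of all peaks, 14.0% were 200 bp or wider and 6.30% were under 50 bp. Neither run had a peak in the first 10% of the list, which holds 10.0% of all peaks. With 13 and 10 peaks the runs are too short to set that apart from the background.

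Wide peaks made up a larger share at the collagen VI genes than in the list, and the share was highest in value at Col6a2/Col6a1. The median width was 130 bp at Col6a3 (95% interval 114 to 151) and 157 bp at Col6a2/Col6a1 (130 to 245), against 114 bp in the rest of the list. The excess lay in the upper part of the range, since the lower quartiles were close, at 92.0 bp for Col6a3, 94.75 bp for Col6a2/Col6a1 and 88.0 bp for the rest. The upper quartiles were 229 bp for Col6a3, 337.5 bp for Col6a2/Col6a1 and 151 bp for the rest. Peaks of 200 bp or more numbered 44 of 151 at Col6a3 (29.1%, Clopper-Pearson 95% interval 22.0 to 37.1) and 38 of 82 at Col6a2/Col6a1 (46.3%, 35.3 to 57.7), against 14.0% of all peaks. Neither interval took in the share of all peaks, and between the windows the intervals overlapped slightly. Part of this excess was shared by other crowded places, since 19.4% of peaks reached 200 bp in 100 kb tiles with 20 or more peaks outside the windows. Both window intervals lay above that share as well, that of Col6a3 by little. Peaks of 300 bp or more numbered 32 (21.2%) and 23 (28.0%) in these windows, against 7.16% of all peaks.

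The Col6a3 window also had an excess of very narrow peaks. Widths under 50 bp were given for 23 of its 151 peaks (15.2%, 9.91 to 22.0) and for 5 of the 82 at Col6a2/Col6a1 (6.10%, 2.01 to 13.7), against 6.30% of all peaks. The narrowest Col6a3 peak measured 5 bp (92652517 to 92652521) and the narrowest at Col6a2/Col6a1 12 bp (76111565 to 76111576). A narrow interval is less than 1 sheared fragment of 100 to 600 bp, so these widths are those of the authors' intervals and not of the bound DNA.

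**Figure D3:**
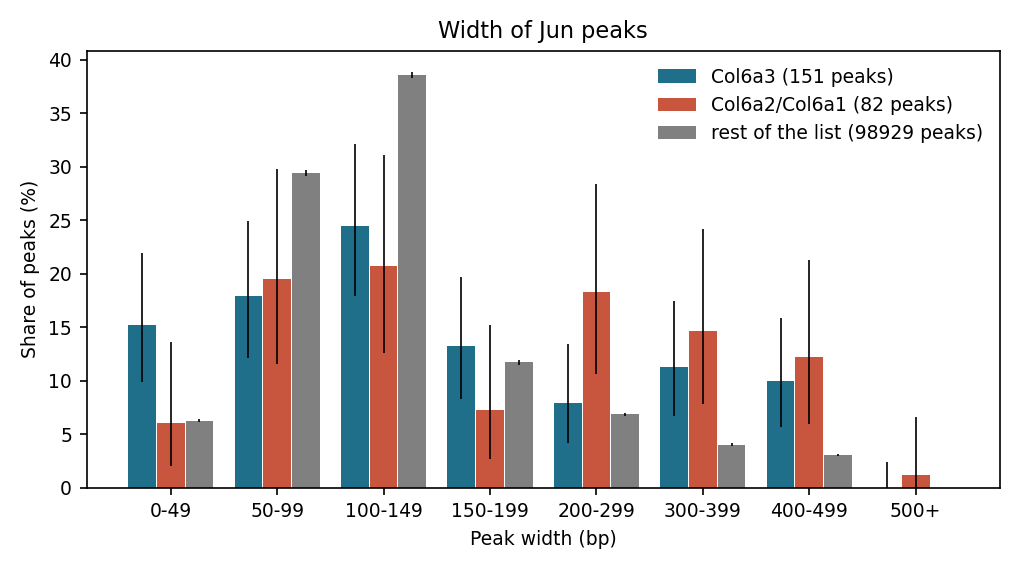
Share of Jun peaks (y axis, percent) in each class of width (x axis, bp) for the Col6a3 window, the Col6a2/Col6a1 window and the rest of the list, with exact 95% binomial intervals as error bars. The classes from 300 bp up to 500 bp are fuller in both windows than in the rest of the list, and the class under 50 bp holds 15.2% of the Col6a3 peaks, 6.10% of the Col6a2/Col6a1 peaks and 6.29% of the rest.

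The widest Col6a3 peak measured 498 bp (92703000 to 92703497), followed by peaks of 478 bp at 92737383 and at 92666366. All 3 stood near the middle of the list, at 51.1%, 53.4% and 54.9% of its length. At Col6a2/Col6a1 the widest, of 664 bp (76173394 to 76174057), stood at 29.9% of the list in the third group. It was the only peak of 500 bp or more in either window. The next were one of 488 bp at 76053348, in the first group at 16.2% of the list, and one of 473 bp at 76166965, in the third group at 76.4%.

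The wide peaks at Col6a2/Col6a1 were unevenly shared among its 3 groups. In the first group 17 of 26 peaks reached 200 bp (65.4%, 44.3 to 82.8) and the median width was 273 bp, in the second 6 of 21 did (28.6%, 11.3 to 52.2; median 130 bp), and in the third 15 of 35 (42.9%, 26.3 to 60.6; median 152 bp). Among the 243 groups of 20 or more peaks in the list, chained in the same way, the first group ranked 1 by the share of peaks of 200 bp or more and 1 by median width. The third group ranked 11 and 19 by these measures, the main Col6a3 group 55 and 60, and the second group 63 and 63. The median over the 243 groups was a share of 20% and a width of 118 bp. Without the first group the Col6a2/Col6a1 share was 37.5% (24.9 to 51.5) and the median width 135 bp (112 to 207), from 56 peaks. These intervals took in the 29.1% and 130 bp of the Col6a3 window, so without that group the windows were not set apart in width.

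Some of the wide intervals overlapped each other. A peak overlapped the one before it in 6 of 151 cases at Col6a3 (3.97%, 1.47 to 8.45) and in 6 of 82 at Col6a2/Col6a1 (7.32%, 2.73 to 15.2), against 1.51% of all peaks. The Col6a3 interval took in that background. Crowded peaks have more chances to overlap, and the share was 2.61% in 100 kb tiles with 20 or more peaks outside the windows. In the 3 fullest groups elsewhere in the list, on chromosomes 4, 7 and 10, it was 6.38%, 1.56% and 2.86%. In 5 of the 6 overlaps at Col6a3 and in all 6 at Col6a2/Col6a1 both intervals were 200 bp or wider. The overlaps measured 35 to 226 bp at Col6a3 and 6 to 113 bp at Col6a2/Col6a1. A run of 3 peaks in the first Col6a2/Col6a1 group, of 277, 304 and 291 bp from 76074315 to 76075105, overlapped end to end. Joining overlapping intervals left 26.9% of the Col6a3 regions and 42.1% of the Col6a2/Col6a1 regions at 200 bp or more.

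The deposited list is not in genomic order and carries no score, so the place of a peak in it is given only as a description. Collagen VI peaks were found from one end of the list to the other. Their median place was at 54.9% of the list for Col6a3 (95% interval 45.8 to 61.6) and at 65.0% for Col6a2/Col6a1 (54.6 to 70.8). In the first 10% of the list stood 19 Col6a3 peaks (12.6%, 7.75 to 19.0) and 12 Col6a2/Col6a1 peaks (14.6%, 7.80 to 24.2), against 10.0% of all peaks by construction, so both shares were near the background.

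Within each window, however, early and late places were not evenly laid out. At Col6a3 the first entries were a peak of 104 bp at 92763626 (place 52), one of 167 bp at 92731500 (place 180) and one of 112 bp at 92626172 (place 642). The fullest 100 kb held only 6 of the 19 peaks of the first 10%, which is 5.36% of its 112 peaks, while the remaining 39 peaks of the window held 13 (33.3%). A run of 81 neighbouring peaks over 68.2 kb (92663182 to 92731349) had none in the first 10%, its earliest standing at 13.2% of the list. The median place was 61.4% in the fullest 100 kb and 30.7% in the rest of the window.

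At Col6a2/Col6a1 the first entries were a peak of 129 bp at 76116156 (place 271), one of 12 bp at 76111565 (place 525) and one of 29 bp at 76193110 (place 930). The peaks at places 271 and 525 belong to the second group, which had 7 of its 21 peaks in the first 10% of the list (33.3%, 14.6 to 57.0) and ranked 3 of the 243 groups by that share. The first group had 1 of 26 there (3.85%, 0.0973 to 19.6), ranking 222, and the third had 4 of 35 (11.4%, 3.2 to 26.7), ranking 141. Both of these intervals took in the 10.0% of all peaks. By stretches of 100 kb the shares at Col6a2/Col6a1 ran opposite to those at Col6a3. In the first 10% stood 11 of 54 peaks (20.4%) inside its fullest 100 kb and 1 of 28 (3.57%) outside it. The median place was nevertheless 61.0% inside and 68.5% outside. These stretches are not a core and its flanks, since the fullest 100 kb (76095447 to 76195266) took in the second group and most of the third. Outside it lay the first group and the end of the third. By groups, the main Col6a3 group had 10.3% of its peaks in the first 10%, ranking 150 of the 243, near the 10.0% of all peaks. The first Col6a2/Col6a1 group, with the highest share of wide peaks, had a median place of 70.4%. Its 1 early entry among 26 peaks does not set it apart from the background. The longest run of neighbours without an early entry took in 23 peaks, from the first group to the start of the second, over 32.7 kb (76063030 to 76095743) with a median width of 270 bp.

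**Figure D4:**
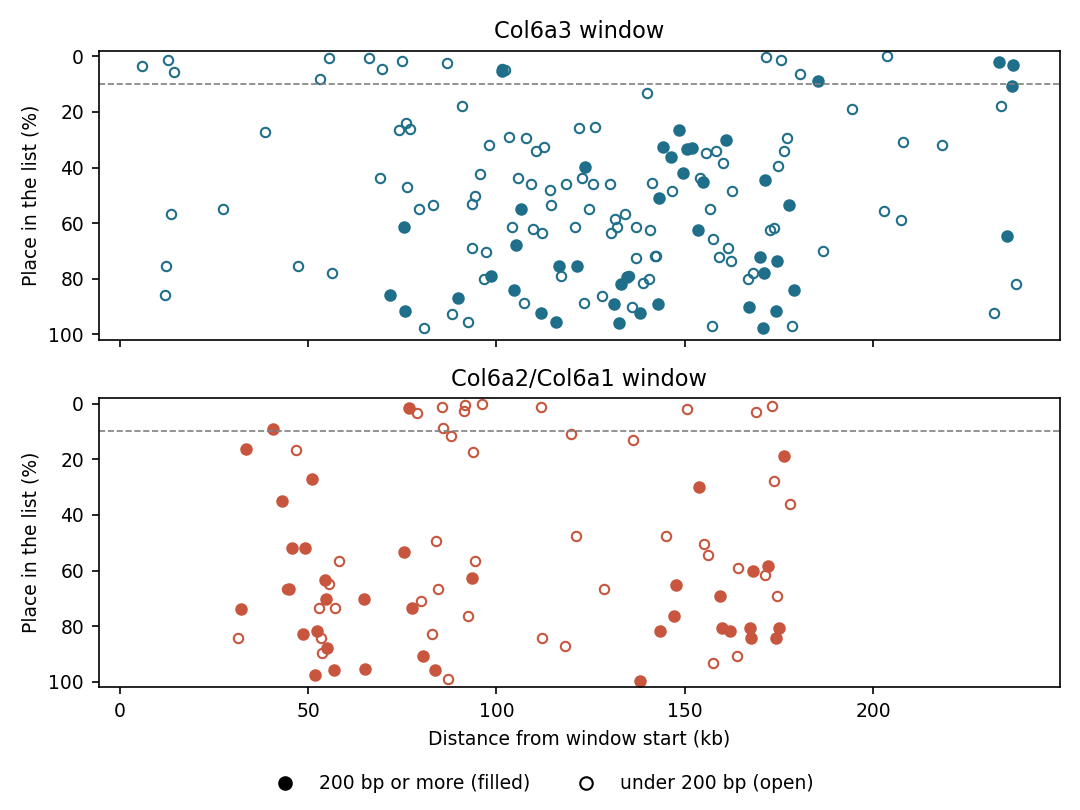
Place of each Jun peak in the deposited list (y axis, percent of the list, first entries at the top, dashed line at 10%) by distance from the window start in kb (x axis), Col6a3 window above and Col6a2/Col6a1 window below. Early entries at Col6a3 lie mainly outside the fullest 100 kb, and those at Col6a2/Col6a1 mainly in the second group.

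Wide peaks were commoner late in the list, in the windows and elsewhere, so widths were also compared within parts of the list. In the first 25% of the list 5 of 25 Col6a3 peaks (20%, 6.83 to 40.7) and 4 of 19 Col6a2/Col6a1 peaks (21.1%, 6.05 to 45.6) reached 200 bp, against 5.96% in the rest of the list. In the last 25% this was the case for 20 of 42 Col6a3 peaks (47.6%, 32.0 to 63.6) and 17 of 27 Col6a2/Col6a1 peaks (63.0%, 42.4 to 80.6), against 21.8% in the rest. In the second 25% the shares were 23.8% at Col6a3 (12.1 to 39.5) and 37.5% at Col6a2/Col6a1 (8.52 to 75.5, 3 of 8 peaks), against 12.2% in the rest, which both intervals took in. In the third 25% they were 21.4% at Col6a3 (10.3 to 36.8) and 50.0% at Col6a2/Col6a1 (30.6 to 69.4), against 16.0% in the rest, which the Col6a3 interval took in. The windows thus lay above the rest in value in each part, and beyond their counting intervals in the first and last parts for Col6a3 and in all but the second for Col6a2/Col6a1. Peaks of other crowded places, those in 100 kb tiles with 20 or more peaks outside the windows, reached 200 bp in 8.47%, 16.7%, 22.7% and 29.7% of cases in the successive 25% parts of the list. In the third part the Col6a3 share thus lay below theirs. In the first and second parts the intervals of both windows took in their 8.47% and 16.7%. Among members in the first 10% of the list, 4 of 19 at Col6a3 (21.1%, 6.05 to 45.6) and 2 of 12 at Col6a2/Col6a1 (16.7%, 2.09 to 48.4) reached 200 bp, against 4.65% of all peaks in the first 10%. The Col6a2/Col6a1 interval took in that background.

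By median place, the most crowded members stood later in the list than the loneliest. At Col6a3 the 71 peaks whose nearest neighbouring centre lay within 500 bp had a median place of 61.5% and a median width of 142 bp, and the 9 with no centre within 2 kb had 27.3% and 107 bp. At Col6a2/Col6a1 the 36 peaks with a neighbour within 500 bp had a median place of 70.4% and a median width of 205 bp, and only 3 peaks had none within 2 kb, with a median place of 8.96% and a median width of 83 bp. Over the whole list the same classes differed less in these medians, with median places of 55.2% and 49.6% and widths of 120 and 112 bp. The share of 200 bp or more, however, fell with distance in the whole list too. It was 22.4% within 500 bp, 15.5% at 500 bp to 2 kb and 9.43% beyond. In the same order it was 35.2%, 26.8% and 0% at Col6a3, and 50%, 44.2% and 33.3% at Col6a2/Col6a1. The share of the first 10% did not follow one order. At Col6a3 it was 7.04%, 15.5% and 33.3% (3 of 9 peaks) for a nearest centre within 500 bp, at 500 bp to 2 kb and beyond. At Col6a2/Col6a1 it was 16.7%, 9.30% and 66.7% (the last being 2 of 3 peaks). Over the whole list it was 9.07%, 12.3% and 8.87%.

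Members close on the genome were often close in the list as well. For 92 of 151 Col6a3 peaks (60.9%) and 38 of 82 Col6a2/Col6a1 peaks (46.3%), another peak within 240 kb stood within 100 places of it, against 22.0% of all peaks. A crowded stretch offers more such neighbours by number alone, and the share was 34.9% in the other crowded tiles. The share that density alone would give was not computed. Places within a window therefore cannot be taken as independent of each other, and the intervals given for shares by list place may be too narrow.

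The 3 fullest groups elsewhere in the list differed among themselves in spacing and width, and the main Col6a3 group lay within their range for both. The main Col6a3 group of 136 peaks had a median spacing of 782 bp and a share of 29.4% at 200 bp or more, beside 815 bp and 36.9% in the group of 141 peaks on chromosome 4 (62842462 to 62999473) and 763 bp and 26.6% in that of 128 on chromosome 7 (124521889 to 124684859). The group of 105 peaks on chromosome 10 (82438439 to 82666162) was looser, at 1392 bp, with 12.4%. Peaks under 50 bp made up 16.2% of the main Col6a3 group (10.4 to 23.5) and 7.80%, 4.69% and 10.5% of the groups on chromosomes 4, 7 and 10. The Col6a2/Col6a1 window, with fewer peaks than any of these, had a larger share of 200 bp or more than each of them, although its interval of 35.3 to 57.7 overlapped that of the chromosome 4 group, 28.9 to 45.4.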

How the data were processed

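The windows and the places compared were chosen with earlier results of these data known. The only values used were peak starts and ends, which the authors deposited as 99162 intervals on 21 chromosomes, with no header, score or strand. The build is mm9, per the submitters' processing notes. The name of the list bears an FDR mark whose unit and method no label explains, so it is not read here as a threshold. Aligner, peak caller, use of the input library, list order and read depth are not stated in the sources, so no peak has a depth of its own. No sample is named in the list, which was assigned to the only Jun library. Per the labels' protocols, 20000000 cells were fixed for 10 minutes in 1% formaldehyde, sheared to 100 to 600 bp and precipitated with 9 μg of antibody, and libraries had 18 PCR cycles.

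Positions count from 1, and a peak stands at its middle. Measures were computed in Python 3.11.15 (pandas 2.3.3, numpy 2.4.6) and tested on simulated data. Exact Poisson, Clopper-Pearson and order-statistic 95% intervals (scipy 1.17.1) cover counting error only. With 1 library no p-value was computed. The rule for named peaks took, in each window, the 3 widest, the 3 first in the list, the outermost, the nearest outside and the fullest run within 1 kb. The split of Col6a2/Col6a1 into 3 groups with their ranks, the runs without early entries, the classes by nearest neighbour and the parts of the list were chosen after seeing values. Alternatives changed the peaks counted, the distances, the bins and the edges. Motifs in peaks, and peaks at Col6a4, Col6a5, Col6a6, Cspg4, Antxr1, Antxr2, Itga1, Itgb1, Bgn, Dcn, Hspg2, Nid1, Fn1 and Matn1, need the sequence or genes of mm9 and were not analysed here.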

Additional observations from a re-analysis of the deposited data

How the results depend on the processing

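No paired analysis was possible because the list comes from 1 library. Of 88 values recomputed under the alternatives, 52 stayed within the counting interval of the main value (counts within 1.5 times) and 36 did not. The cause was not tested beyond the alternatives' own construction, by which merging and the use of part of the list leave fewer peaks. With peaks within 1000 bp merged, the densities were 20 regions per 100 kb at Col6a3 and 15.7 at Col6a2/Col6a1, the median spacing was 3754 and 4065 bp, the median width 480 and 560 bp, the share of 200 bp or more 60.4% and 69.7%, and the fullest bin held 4 regions in each window. The next region then lay within 10 kb for 89.6% at Col6a3. In the first 50% of the list the densities were 27.9 and 12.9 peaks per 100 kb (ratio 2.17), the spacing 2011 and 3293 bp and the median width 112 and 129 bp at Col6a3 and Col6a2/Col6a1, and 25.9% of the Col6a2/Col6a1 peaks reached 200 bp. That part held 44.4% of the Col6a3 and 32.9% of the Col6a2/Col6a1 peaks. In the last 50% the densities were 35.0 and 26.2 per 100 kb, and at Col6a3 the spacing was 1156 bp and the median width 152 bp. From first to last peak the Col6a2/Col6a1 density was 56.0 per 100 kb and the ratio of the windows 1.16. Peaks of at least 50 bp had a median spacing of 919 bp at Col6a3. The next centre lay within 1 kb for 64.2% of the Col6a3 and 50.0% of the Col6a2/Col6a1 peaks, within 2 kb for 84.1% and 74.4%, and within 5 kb for 89.0% at Col6a2/Col6a1. Peaks of 150 bp or more were 42.4% at Col6a3, and those of 300 bp or more 21.2% and 28.0%. The ratio of densities stayed above 1 under each alternative run, between 1.16 and 2.17, but its interval reached below 1 with merging, in the last 50% of the list and from first to last peak. The share of 200 bp or more was higher in value at Col6a2/Col6a1 than at Col6a3 under each alternative of width and list part run. The first 10% of the list was not among these alternatives. There the order was the reverse, with 16.7% at Col6a2/Col6a1 (2 of 12) and 21.1% at Col6a3 (4 of 19). Joining overlapping peaks and leaving out the first Col6a2/Col6a1 group were added after seeing the data. The alternatives on motifs in peaks were not run, since no mm9 sequence was at hand. Without depth, a stretch with no peak cannot be taken as unbound.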
